A study of Mus musculus with 12 samples.

Results

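Metabotropic glutamate receptors are the G protein-coupled receptors of glutamate, encoded in the mouse by the Grm genes. The genes Grm2 to Grm8 were taken here, and their members were the array probesets of the main type whose gene symbol in the deposited table is 1 of these 7 names. Such probesets were used for 5 of the 7 genes, namely Grm3, Grm4, Grm6, Grm7 and Grm8, with 60 probesets of the 221417 main probesets with a symbol and 5 of 17550 genes. Grm2 and Grm5 were not analysed here. Total RNA was measured from 12 whole brains of newborn female mice, on 1 Affymetrix Mouse Exon 1.0 ST array per brain. Of these brains 6 were KIS +/+ (wildtype) and 6 were KIS -/- (KIS-ko), the homozygous deletion of the kinase KIS, which the gene Uhmk1 encodes. Each of 6 litters gave 1 brain of each genotype, and all mice were from a line backcrossed for several generations to C57BL6/N. The deletion was constitutive, whole brains were powdered, and a lower signal can therefore stand for fewer cells of a type or for less RNA per cell, which cannot be told apart here.

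The family is divided into groups by sequence and coupling. Receptors of group I act through Gq and phospholipase C, whereas group II (Grm2, Grm3) and group III (Grm4, Grm6, Grm7, Grm8) act through Gi/o proteins, which lower cyclic AMP and, at presynaptic terminals, reduce transmitter release. Grm3 is known in neurons and in astrocytes and also responds to the dipeptide NAAG. Grm4 is known in cerebellar granule cells, Grm7 lies in the active zone of many presynaptic terminals, and Grm8 is known in the olfactory bulb and other forebrain terminals. Grm6 is the receptor of ON bipolar cells of the retina, where it closes the channel Trpm1.

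The arrays were similar to one another, with correlations of log2 signals from 0.977 to 0.990 between arrays and array medians from 459.9 to 525.9. The log2 signals of Uhmk1 matched the labels. On the scale used for genes throughout, the mean over probesets of log2(signal + 16), Uhmk1 ranged from 10.89 to 11.07 in wildtype brains (median 10.96) and from 8.62 to 8.98 in KIS-ko brains (median 8.93). The genotypes did not overlap (difference -2.11 ± 0.07, SE, n = 6 pairs, limma adjusted p = 2.91e-07). The labelled tissue was checked by markers. Of these, 5 of 5 neuronal and 6 of 7 astrocyte and radial glia genes had a median probeset above 713.3, the 95th percentile of 5222 intron control probesets, against 0 of 6 photoreceptor genes and 0 of 3 anterior pituitary genes. Above the same limit were 4 of 5 genes of the cerebellar granule cell lineage, 4 of 7 of the oligodendrocyte lineage, 3 of 5 of the meninges, 2 of 5 of endothelium, 2 of 4 of erythroid cells, 1 of 6 of microglia and 1 of 5 of choroid plexus.

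Of the 60 receptor probesets, 58 were kept. A probeset of Grm6 that holds 1 probe and probeset 13 of Grm7 were removed because their relative standard deviation was above 0.4 in a genotype. Grm3 gave the highest gene values of the 5 receptors. Its values ranged from 10.93 to 11.16 in wildtype brains (median 11.09, mean 11.06 ± 0.09, SD, n = 6) and from 10.83 to 11.11 in KIS-ko brains (median 10.96, mean 10.97 ± 0.10). These ranges overlap, and all 12 values lie above the 95th percentile of the intron controls, which is 9.51 on this scale. Of the 11 probesets of Grm3, 9 had a mean signal above that percentile. Over all arrays the mean gene value of Grm3 was higher than that of 91.0% of the 17279 genes with a kept probeset.

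Grm7, the presynaptic receptor with the lowest affinity for glutamate of the family, came next. Its wildtype values ranged from 9.94 to 10.46 (median 10.36, mean 10.31 ± 0.19) and its KIS-ko values from 9.94 to 10.36 (median 10.26, mean 10.22 ± 0.15). Both sets are above the 95th percentile of the controls, and each includes a single low value at 9.94. Of its 13 kept probesets 12 were above the 95th percentile of the controls, and the gene stood at the percentile 80.2 of all genes.

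Grm4 lay at the limit of the controls. Wildtype values ranged from 9.30 to 9.55 (median 9.51, mean 9.47 ± 0.10) and KIS-ko values from 9.26 to 9.59 (median 9.46, mean 9.44 ± 0.12). The genotypes overlap almost completely. Of its 11 probesets 5 were above the 95th percentile and all 11 were above the control median of 114.3. Grm8 was dimmer, with values from 8.39 to 9.03 in wildtype brains (median 8.75, mean 8.76 ± 0.23) and from 8.24 to 8.90 in KIS-ko brains (median 8.77, mean 8.68 ± 0.25). It had 2 of 13 probesets above the 95th percentile and 12 of 13 above the control median. Grm8 showed the widest spread between brains of the 5 genes, with an SD of 0.23 over the 12 arrays against 0.10 for Grm3.

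Grm6 was not distinguished from the intron controls. Its values ranged from 6.97 to 7.26 in wildtype brains (median 7.11, mean 7.11 ± 0.10) and from 6.92 to 7.26 in KIS-ko brains (median 7.17, mean 7.15 ± 0.13), next to the control median of 7.03 on this scale. None of its 10 kept probesets was above the 95th percentile of the controls, and 6 were above the control median. Of the ON bipolar cell cascade, Trpm1 and Nyx, the channel and the anchor of that synapse, had median probeset signals of 143.6 and 229.6. These are above the control median and below the 95th percentile of the controls, as were Rgs11 at 405.6 and Rgs9bp at 212.5. Rgs7 and Gnb5, regulators of Gi/o signalling that many neurons use, had signals of 1838 and 1748.

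The order of gene values was Grm3, Grm7, Grm4, Grm8 and Grm6, and no 2 neighbours in it overlapped over the 12 arrays. Probes of different genes bind with unlike strength, so this order describes signals and was not tested as an order of RNA amounts. The same holds for the percentiles among all genes and for the steps between probesets along a gene, which are given as descriptions.

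**Figure D1:**
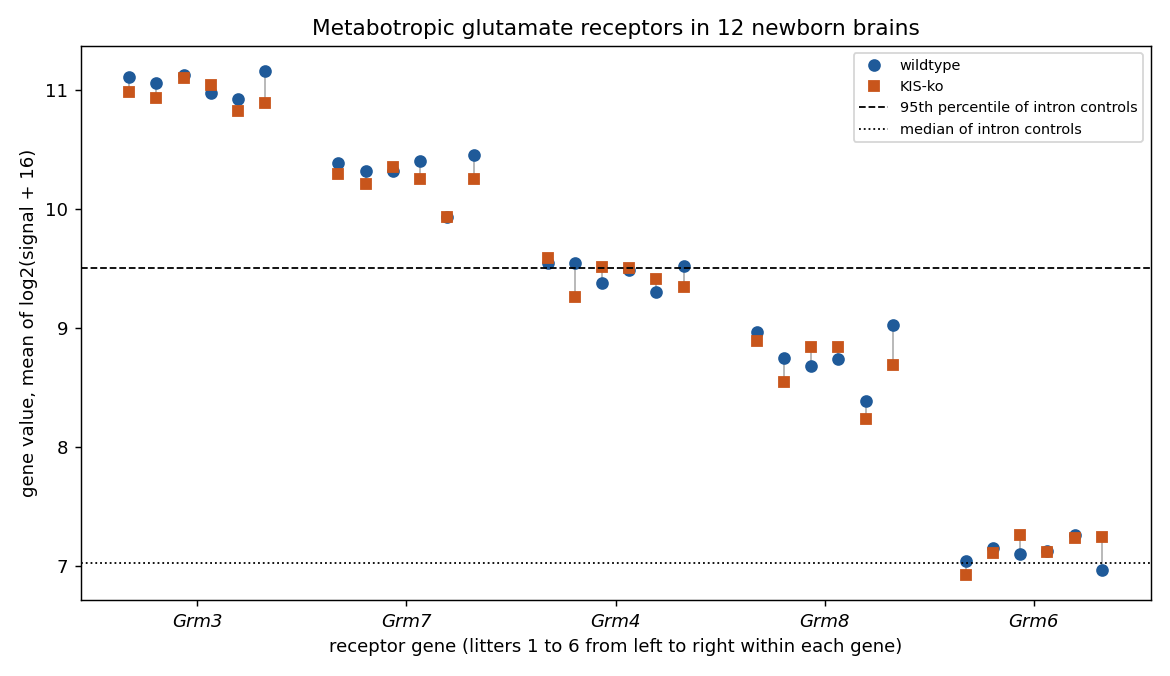
Gene values, the mean over kept probesets of log2(signal + 16), of the 5 receptors on the y axis in 12 newborn brains. Circles are wildtype, squares KIS-ko, and a grey line joins littermates, with litters 1 to 6 from left to right in each gene. Grm3 and Grm7 lie above the dashed line (95th percentile of intron controls, 9.51), Grm6 lies around the dotted line (their median, 7.03), and both brains of litter 5 are low for Grm7 and Grm8.

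The exon profiles were read from the 5′ end in the direction of each gene's strand, with positions as the table lists them. The genome build of these positions is not given in the sources used here. Grm3 lies on the minus strand of chromosome 5, with probesets from 9485306 to 9725227 in 7 groups of exon identifiers. Its first 4 probesets had mean signals of 1224, 1095, 639 and 280, and probeset 5 had 5696. Probesets 3, 4 and 5 share an exon identifier and lie within positions 9589581 to 9590037, so that the signal changed from 280 to 5696 inside a single annotated exon region. Probeset 4 is marked in the table as matching several places in the genome. From probeset 5 to the 3′ end the signals stayed between 2360 and 5696. Each exon group of Grm3 held a probeset above the 95th percentile of the controls.

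Grm7 spans the longest stretch, from 110595665 to 111516427 on the plus strand of chromosome 6, with 14 probesets in 10 exon groups. Its first probeset had a mean signal of 306 and the second, in the same exon group, 1560. Signals then ran between 771 and 3299, with the brightest in probeset 10, up to the removed probeset 13 at 67 and the last at 975. The last 2 share an exon group.

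Grm4, on the minus strand of chromosome 17 from 27559391 to 27640076, was brightest towards the 3′ part of its profile. Its first 5 probesets had mean signals between 299 and 833. Probesets 6 to 9 had 1518, 1757, 1712 and 2693. The last 2 probesets, which form the exon group at the 3′ end, fell back to 168 and 187. On each of the 12 arrays probeset 10 was dimmer than probeset 9, with steps between -4.505 and -3.27 on the log2(signal + 16) scale.

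Grm8, on the minus strand of chromosome 6 from 27225654 to 28076168, showed 2 bright probesets. The first had a mean signal of 1000 and probeset 11 had 1335, and the other 11 lay between 63 and 660. The step from probeset 11 to the last, probeset 13, was between -4.39 and -3.50 over the arrays. In Grm6, on the plus strand of chromosome 11 from 50670342 to 50679553, the kept probesets lay between 73 and 303.

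These profiles were alike on all arrays. The correlation of log2 signals over the probesets of a gene, between any 2 arrays, was at least 0.980 in Grm3, 0.946 in Grm4, 0.911 in Grm7 and 0.899 in Grm8, against 0.644 in the dim Grm6. These values are across probesets, which are not independent replicates, and they include what the probes of a gene share.

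**Figure D2:**
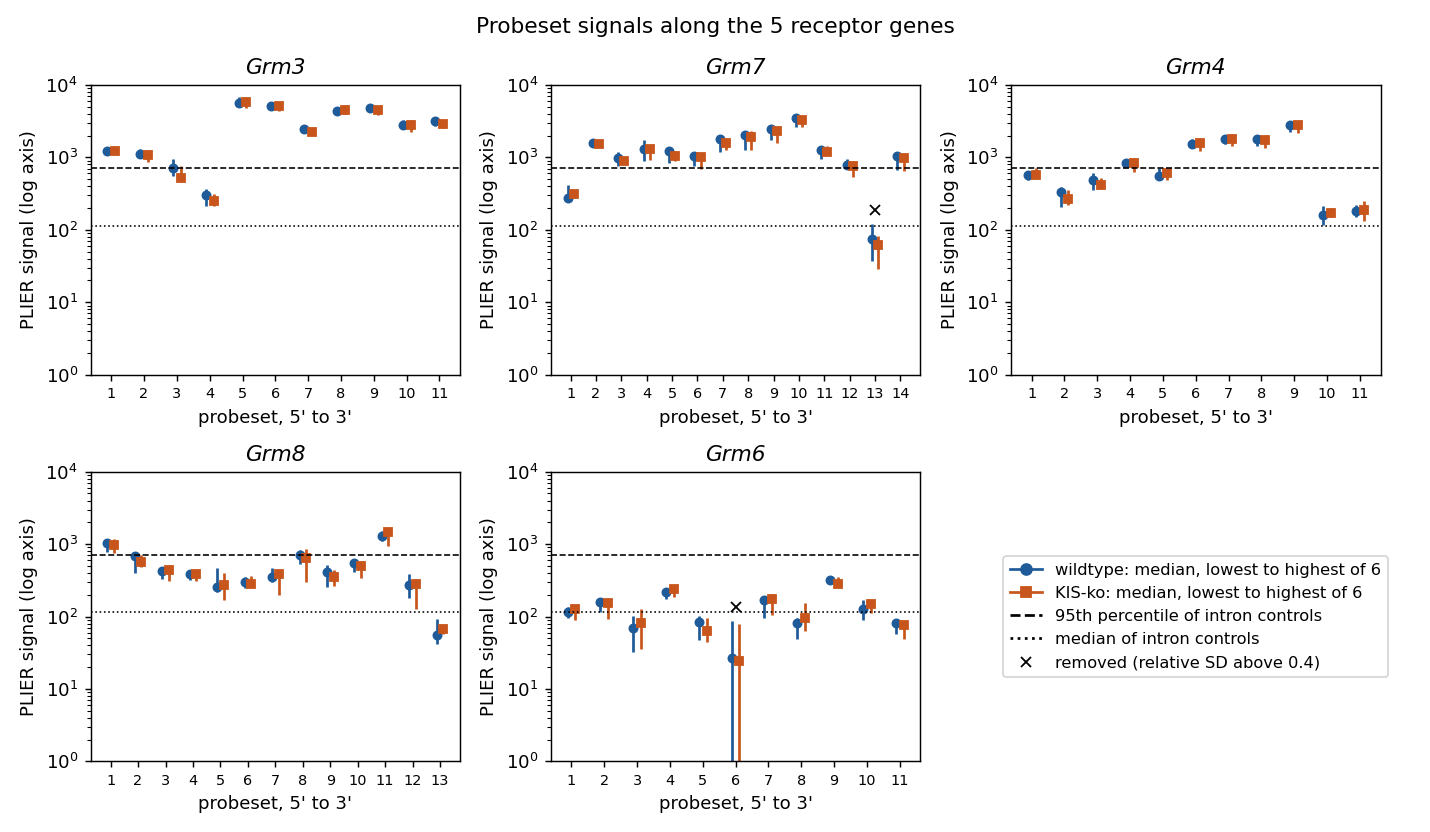
PLIER signal (log axis, from 1 upward) of each probeset along the 5 genes, numbered from the 5′ end. Symbols are medians of 6 brains and bars run from the lowest to the highest brain, circles for wildtype and squares for KIS-ko. Crosses mark the 2 removed probesets, dashed and dotted lines the 95th percentile (713.3) and the median (114.3) of the intron controls. Both genotypes trace the same profile in each gene, with dim probesets at the 3′ end of Grm4 and Grm8 and at place 4 of Grm3.

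The comparison of the genotypes within litters asked whether the absence of KIS changes the RNA of these receptors at birth. No receptor gene passed the adjusted threshold of 0.05, where 1 of 17279 genes did, Uhmk1 (0.00579% of genes). None of the 5 had an unadjusted p under 0.05, against 6.16% of all genes. Without the litter block none passed either. Of the 5 receptors 4 had a lower mean in KIS-ko brains, beside 69.8% of all genes. The median difference of the 5 was -0.08 and that of all genes -0.04 on the log2 scale, and arrays centred on their medians gave -0.03 for the receptors and 0.02 for all genes.

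Grm3 differed by -0.12, -0.13, -0.02, 0.07, -0.10 and -0.27 in litters 1 to 6, lower in 5 of 6. The mean was -0.09 ± 0.05 (SE, n = 6 pairs, 95% interval -0.21 to 0.02, limma adjusted p = 0.685), that is 93.7% of the wildtype value with an interval from 86.3% to 102%. The exact two-sided sign-flip test over litters gave p = 0.0938, where 0.0312 is the smallest p that 6 pairs allow. Taken relative to the median difference of all genes in the same litter, Grm3 was lower in 6 of 6 litters. This relative difference was -0.06 ± 0.05 (SD, n = 6; exact sign-flip p = 0.0312, the smallest possible). It was looked at after the data were seen, it was computed for 5 genes, and in litter 4 it was close to 0 (0.07 for both Grm3 and the median gene). With centred arrays the fit gave -0.04 for Grm3 (limma adjusted p = 0.760). With single litters left out it ran from -0.13 without litter 4 (limma unadjusted p = 0.0313, adjusted p = 0.190) to -0.06 without litter 6. In the fit without litter 4, 3913 of 17279 genes had an unadjusted p under 0.05, against 1065 with all litters.

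Grm7 differed by -0.09, -0.11, 0.03, -0.15, -0.00024 and -0.20 in the 6 litters. Its mean was -0.09 ± 0.05 (95% interval -0.20 to 0.02, adjusted p = 0.685 by limma), or 94.1% of wildtype with an interval from 87.3% to 102%. The KIS-ko brain was lower in 5 of 6 litters, of which litter 5 by almost nothing, with a sign-flip exact p of 0.0938. Relative to the median gene it was lower in 4 of 6 litters, and with centred arrays the fit gave -0.03 (limma adjusted p = 0.847).

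Grm8 differed by -0.07, -0.20, 0.16, 0.10, -0.15 and -0.34, and thus had signs both ways. Its mean was -0.08 ± 0.07 (95% interval -0.23 to 0.07, limma adjusted p = 0.702), and it was -0.03 with centred arrays. With single litters left out it ran from -0.13 (without litter 3) to -0.03 (without litter 6). Grm4 differed by 0.04, -0.28, 0.14, 0.01, 0.11 and -0.18, and was higher in 4 of 6 litters with a mean of -0.03 ± 0.06 (95% interval -0.17 to 0.12, limma adjusted p = 0.878). Its sign turned to 0.03 with centred arrays, 0.02 without litter 2 and 0.004 without litter 6. Grm6 differed by -0.12, -0.04, 0.16, -0.01, -0.03 and 0.28, with a mean of 0.04 ± 0.06 (95% interval -0.09 to 0.17, limma adjusted p = 0.797), at the level of the controls. Its sign turned to -0.006 without litter 6 and to -0.02 with a stricter filter at a relative standard deviation of 0.2. As a share of wildtype the intervals ran from 88.9% to 108% for Grm4, from 85.0% to 105% for Grm8 and from 93.9% to 113% for Grm6.

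The measure described in the methods, averages the KIS-ko over wildtype ratios of a gene's probesets and gives more weight to those that vary less between pairs. It gave ratios near 1. It was 0.973 ± 0.047 (SD over 6 pairs) for Grm3, 0.945 ± 0.041 for Grm7, 0.964 ± 0.108 for Grm8, 1.00 ± 0.105 for Grm4 and 1.07 ± 0.124 for Grm6. With centred arrays the ratios were 0.994, 0.981, 1.0014, 1.03 and 1.11 in the same order, so that Grm8 turned to the other side of 1. These ratios have no test.

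**Figure D3:**
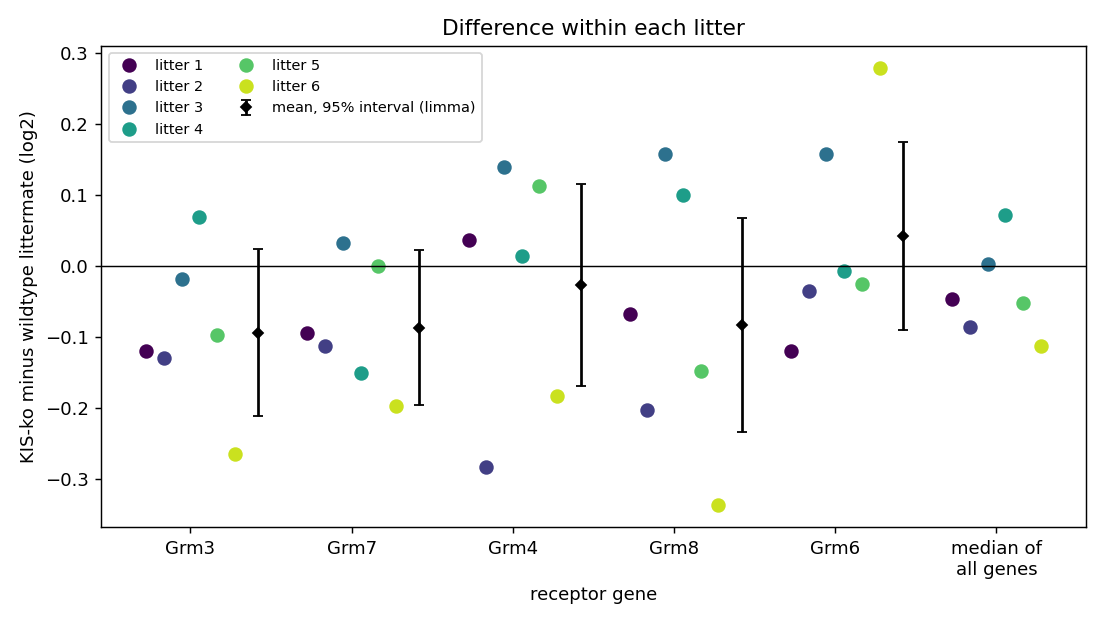
Difference of gene values (log2), KIS-ko minus wildtype littermate, for each receptor in litters 1 to 6 (coloured points) with the limma mean and 95% interval (black diamond and bar), and the median difference of all genes at the right. All 5 intervals include 0, and litter 6 is at -0.27 in Grm3 and -0.34 in Grm8 where the median gene of that litter is at -0.11.

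At the level of single probesets, 0 of 58 passed the adjusted threshold in limma (lowest adjusted p 0.751), where 10 of 205469 did over the whole table (0.00487%). An unadjusted p under 0.05 was found for 2 of 58 (3.45%), beside 6.63% of all probesets. The mean was lower in KIS-ko for 43 of 58 receptor probesets, beside 66.2% of all, and for 30 of 58 (51.7%) with centred arrays, beside 43.7% of all on that scale. By gene the lower ones were 12 of 13 in Grm7, 11 of 13 in Grm8, 9 of 11 in Grm3, 7 of 11 in Grm4 and 4 of 10 in Grm6. Probesets of a gene share its RNA and are not replicates.

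The 2 probesets were probeset 5 of Grm7 and probeset 8 of Grm6. In Grm7 the signals ranged from 846 to 1297 in wildtype (median 1217) and from 902 to 1175 in KIS-ko (median 1037), and overlap. The difference was -0.17 ± 0.07 (limma unadjusted p = 0.0489, adjusted p = 0.752), lower in 5 of 6 litters. In Grm6 they ranged from 48.5 to 96.6 in wildtype (median 81.4) and from 63.0 to 153 in KIS-ko (median 94.1), all near or below the control median. This difference was 0.28 ± 0.11 (limma unadjusted p = 0.0297, adjusted p = 0.751). Litter 6 alone stood at 0.79, and without it the difference was 0.18.

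The largest difference in size among the 58 was that of probeset 3 of Grm3, which lies 5′ of the bright one in the same exon group. Its signals ranged from 553 to 936 in wildtype (median 705) and from 459 to 767 in KIS-ko (median 511). KIS-ko brains were mostly lower, but the groups overlap. The difference was -0.36 ± 0.16 (limma unadjusted p = 0.0547, adjusted p = 0.755), lower in 5 of 6 litters and between -1.004 in litter 2 and 0.46 in litter 4. It was -0.24 without litter 2 and -0.53 without litter 4 (limma adjusted p = 0.972 and 0.159). In the same exon group the bright probeset 5 differed by -0.003 ± 0.07, with wildtype signals from 4932 to 6753 (median 5595) and KIS-ko signals from 4839 to 6272 (median 5899).

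A splicing index, the log2 signal of a probeset minus the mean of the gene's other probesets, was compared in the same way. It passed the adjusted threshold for 0 of 58 receptor probesets (lowest adjusted p 0.763 by limma), beside 2 of 202944 (0.000985%). An unadjusted p under 0.05 was found for 2 of 58, beside 6.09% of all, and both were in Grm6, the gene at control level. Probeset 8 gave 0.27 ± 0.08 (limma unadjusted p = 0.0105) and probeset 9 gave -0.18 ± 0.06 (limma unadjusted p = 0.0145). In Grm3 the index of probeset 3 was -0.30 ± 0.15 (limma unadjusted p = 0.0866). Without litter 4 the number with an unadjusted p under 0.05 was 10 of 58 (17.2%), of which 6 were in Grm3, but the share over the whole table rose as well, from 6.09% to 12.1%, and no receptor probeset passed the adjusted threshold. The index of probeset 3 of Grm3 moved with the litter left out, to -0.44 ± 0.12 without litter 4 (limma unadjusted p = 0.00693, adjusted p = 0.291) and to -0.16 ± 0.13 without litter 2 (limma unadjusted p = 0.252, adjusted p = 0.996). The Simes test of diffSplice, which called 290 of 15572 genes (1.86%), called 0 of the 5 receptor genes.

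**Figure D4:**
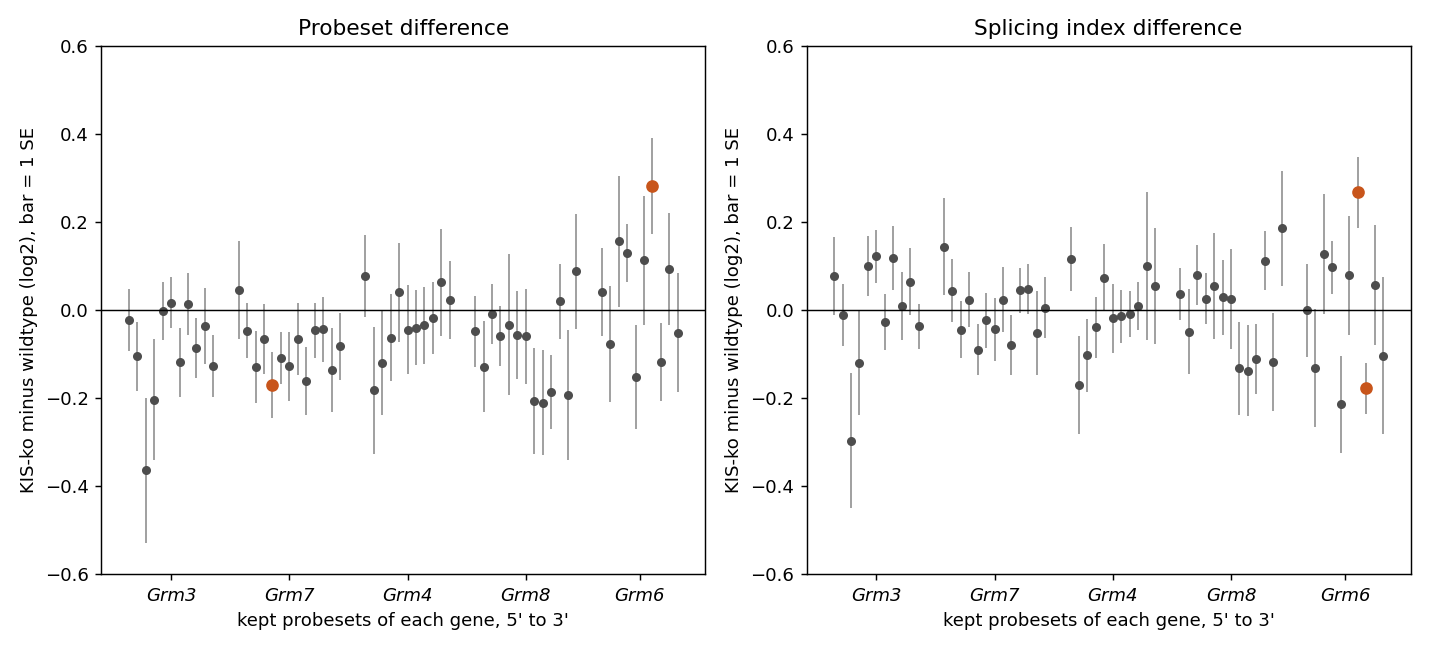
KIS-ko minus wildtype (log2) for each of the 58 kept probesets, from the 5′ to the 3′ end of each gene, as the probeset difference (left) and the splicing index difference (right). Bars are 1 SE from limma, and larger orange points have an unadjusted p under 0.05. The point furthest below 0 on both sides is probeset 3 of Grm3, at -0.36 and -0.30.

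The brains of litter 5 were low for 2 of the group III receptors in both genotypes. For Grm7 both brains of litter 5 had a value of 9.94, whereas the other 10 brains ranged from 10.21 to 10.46. For Grm8 they had 8.39 (wildtype) and 8.24 (KIS-ko), and the others ranged from 8.55 to 9.03. In both genes the litter therefore lay outside the range of the rest. The mean of litter 5 was lower by a log2 difference of -0.39 for Grm7 and -0.49 for Grm8, which is 76.4% and 71.4% of the other brains. As description, 2.47% and 0.816% of all genes had a difference as low, and the median gene had -0.03. Centred arrays gave -0.29 and -0.40.

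The low values ran along both genes. Of the 13 kept probesets of Grm7, 12 were lower in litter 5 than in the mean of the other brains, and in 10 both brains of the litter were below all others. In Grm8 these counts were 13 and 8 of 13. Grm3, Grm4 and Grm6 had differences of -0.16, -0.11 and 0.14 for the same comparison. Without this litter the difference between genotypes was similar, as Grm7 gave -0.10 ± 0.06 and Grm8 -0.07 ± 0.08 (limma adjusted p = 0.724 and 0.778).

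Other lists were examined in litter 5 after these values were seen. The summed signal of the 16 ionotropic glutamate receptor subunits was lowest of its genotype in litter 5, at 22515 among wildtype brains that reached 27734 and at 22075 among KIS-ko brains that reached 26859. The sum over the 5 neuronal markers was 35137 in the wildtype brain of litter 5 (genotype range 33358 to 36284) and 33274 in the KIS-ko brain (33274 to 35331). That of the 7 astrocyte and radial glia markers was lowest in both genotypes, at 20168 and 19218. As the mean log2 value over the list, litter 5 differed from the other brains by -0.17 for the ionotropic subunits and -0.08 for the astrocyte list, and with centred arrays these became -0.08 and 0.02. The 6 photoreceptor genes, all dim, had their highest sums in litter 5 in both genotypes, 980.6 and 987.0. The sum of the 5 markers of the cerebellar granule cell lineage was second lowest in wildtype and second highest in KIS-ko. The part of cell composition in the low values of Grm7 and Grm8 was not tested.

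Likeness over the 12 arrays was measured by Pearson's r of centred gene values, over 6372 other genes whose median probeset was above the 95th percentile of the controls, and for the 2 receptors above it. It is given as a description, since arrays share litters. For Grm7 the closest were Ptprm, a receptor tyrosine phosphatase (r = 0.947), Apba1, an adaptor of presynaptic vesicle release (r = 0.933), and Calb1, the calcium-binding protein calbindin (r = 0.922). Without litter 5 these became 0.738, 0.869 and 0.657. For Grm3 they were Epb4.1l2 (r = 0.873), a protein of the membrane skeleton, Plcb1 (r = 0.853), a phospholipase C, and Usp15 (r = 0.852), a deubiquitinase, and without litter 5 they were 0.864, 0.905 and 0.834. Between the receptors, Grm7 and Grm8 gave r = 0.800 over 12 arrays and 0.278 without litter 5.

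The genes that act with the receptors were grouped by role, and 0 of 71 list entries passed the adjusted threshold. Counts of genes that were lower, or had an unadjusted p under 0.05, are to be read beside the 69.8% and 6.16% of all genes that did so. In the Gi/o, adenylyl cyclase and GIRK pathway, through which all 5 measured receptors act, 13 of 13 genes had a lower mean in KIS-ko and 2 had an unadjusted p under 0.05. The median difference was -0.08, beside -0.04 over all genes, and -0.03 with centred arrays. Kcnj9, a GIRK channel subunit, ranged from 8.05 to 8.19 in wildtype (median 8.08) and from 7.87 to 8.02 in KIS-ko (median 7.93). Its level was below the 95th percentile of the controls. The difference was -0.16 ± 0.05 (limma unadjusted p = 0.0069, adjusted p = 0.685), lower in 6 of 6 litters, and -0.11 with centred arrays. Adcy7, an adenylyl cyclase, differed by -0.12 ± 0.05 (limma unadjusted p = 0.0381, adjusted p = 0.685), and by -0.06 with centred arrays.

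Among the proteins that bind the receptors or regulate their G proteins, 11 of 12 were lower and 1 had an unadjusted p under 0.05. This was Rgs4, which speeds the shut-off of Gi/o and Gq signals. Its values ranged from 9.40 to 9.67 in wildtype (median 9.46) and from 8.92 to 9.24 in KIS-ko (median 9.15). The difference was -0.38 ± 0.07, lower in 6 of 6 litters, and -0.32 with centred arrays, and it did not pass the adjusted threshold (limma unadjusted p = 0.000294, adjusted p = 0.326). Whether the place of Rgs4 or Kcnj9 in the genome relative to Uhmk1 has a part in their differences was not tested. The next gene of the list, Homer2, a scaffold of postsynaptic receptors, gave -0.08 ± 0.06 (limma adjusted p = 0.690), and -0.02 with centred arrays. The median of the list was -0.04, and it turned to 0.02 with centred arrays.

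In the Gq and phospholipase C pathway 9 of 10 genes were lower with a median of -0.05, which turned to 0.01 with centred arrays. Plcb1, a phospholipase C, gave -0.07 ± 0.06 (limma adjusted p = 0.693), and -0.02 with centred arrays. For the supply and uptake of glutamate and NAAG 14 of 14 genes were lower with a median of -0.08 (-0.03 with centred arrays), and none had an unadjusted p under 0.05. Folh1, the enzyme that cleaves NAAG, gave -0.20 ± 0.09 and Slc7a11, the cystine-glutamate exchanger, -0.15 ± 0.07 (limma adjusted p = 0.685 for both). With centred arrays Folh1 gave -0.14 and Slc7a11 -0.09. Of the 16 ionotropic subunits 14 were lower with a median of -0.04, which turned to 0.01 with centred arrays. Among them Grik1, a kainate receptor subunit, gave -0.12 ± 0.06 (limma adjusted p = 0.685), and -0.07 with centred arrays. In the ON bipolar cell cascade 5 of 6 were lower with a median of -0.03, which turned to 0.02 with centred arrays. Trpm1 gave 0.06 ± 0.07 and Rgs11 -0.04 ± 0.06, and with centred arrays 0.11 and 0.01.

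Markers of cell types were compared between genotypes as well. None of the 11 lists held a gene past the adjusted threshold. The 7 astrocyte and radial glia genes were all lower in KIS-ko with a median of -0.09, as were the 5 of 5 endothelial genes (median -0.08) and the 5 of 5 genes of the cerebellar granule cell lineage (median -0.07). With centred arrays these medians were -0.03, -0.03 and -0.02. The other lists had medians from -0.08 (anterior pituitary, 2 of 3 lower) to 0.05 (photoreceptors, 1 of 6 lower), with 1 of 4 erythroid genes and 3 of 5 choroid plexus genes lower. Within the astrocyte list, Gfap, the intermediate filament of astrocytes, gave -0.27 ± 0.08 (limma unadjusted p = 0.00686, adjusted p = 0.685), and -0.22 with centred arrays. Its median probeset signal of 450.0 was below the 95th percentile of the controls. The other genes of the list differed by -0.12 to -0.05. The summed signal of this list ranged from 20168 to 23159 in wildtype and from 19218 to 21533 in KIS-ko brains, beside the lower mean of Grm3. That of the 5 neuronal genes ranged from 33358 to 36284 and from 33274 to 35331. Their part in the receptor differences was not tested.

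**Figure D5:**
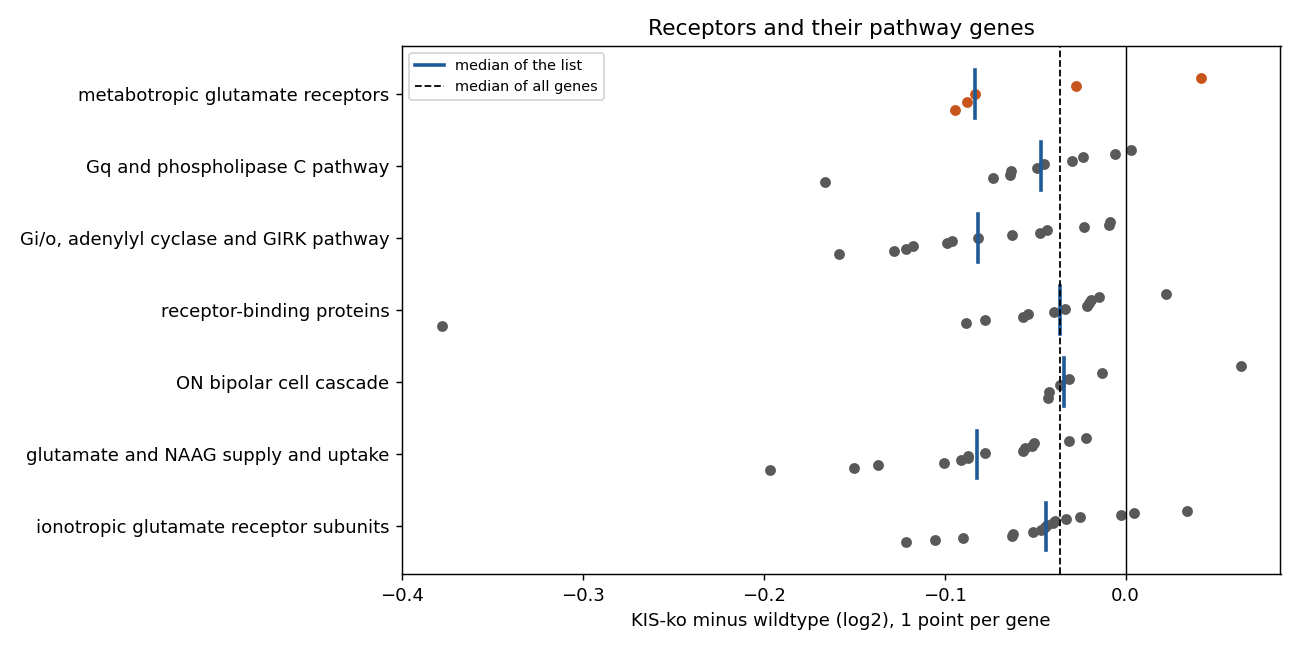
Difference between genotypes (log2, KIS-ko minus wildtype) of each receptor (orange) and each gene of 6 pathway lists (grey), 1 point per gene. Blue bars are the medians of the lists and the dashed line is the median of all genes (-0.04). The point at -0.38 is Rgs4. With centred arrays the medians of the Gq, receptor-binding, ON bipolar and ionotropic lists turn above 0.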

How the data were processed

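The authors processed the arrays with Affymetrix Expression Console, normalized exons by quantiles, estimated signals by PLIER, and deposited the intensity (PLIER signal, linear scale) of each probeset on each array. Here main probesets with a gene symbol were used, and probesets were removed (7.20%) where, in a genotype, the standard deviation exceeded 0.4 of the mean. Gene values were means over probesets of log2(signal + 16). They were fitted in limma 3.58.1 (R 4.3.3) with the litter as a block, with Benjamini-Hochberg adjustment over all 17279 genes. Probesets (205469) and splicing indexes (202944, genes with at least 3 probesets) were fitted likewise. The exact sign-flip test was two-sided over 6 litters. Python 3.11.15 (numpy 2.4.6, pandas 2.3.3, scipy 1.17.1, matplotlib 3.10.9) served for the rest. The fits were tested on simulated data. The number of arrays and the signal over background limit the precision.

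The pairing comes from the labels, which give the litter: array deviations from the mean of the genotype correlated between littermates at -0.09 to 0.33 (mean 0.08), against a mean of -0.02 between litters.

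The 7 genes and the lists were chosen with earlier results of these data known. Named genes were the receptors, Uhmk1, from each list the 2 genes of lowest p (some are not reported here), the 3 genes most like each receptor above the controls, and the brightest and dimmest receptor probesets and those of lowest p. Other genes named are Nyx, Rgs7, Rgs9bp, Gnb5 and Gfap, and probeset 3 of Grm3 for its size, chosen after their values were seen. Alternatives were no litter block, other pseudocounts, filters and normalizations, and each litter left out.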

Additional observations from a re-analysis of the deposited data

Results flagged for a closer look

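The gene values of Grm7 held a low value far from the others in each genotype, and both came from litter 5. The lowest wildtype value was 9.94 and the next 10.32, and the lowest KIS-ko value was 9.94 and the next 10.21. The gap to the nearest value was 0.745 and 0.655 of the whole range, above the limit of Dixon's test for 6 values. Chance flags about 1 in 20 such groups, and 15 groups were examined here (5 genes, with the wildtype values, the KIS-ko values and the differences within litters), of which 2 were flagged.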

How the results depend on the processing

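No receptor gene, probeset or splicing index passed the adjusted threshold under any of the alternatives run. Grm3, Grm7 and Grm8 kept a lower mean in KIS-ko in all 17 alternatives each, from -0.13 to -0.04, from -0.11 to -0.03 and from -0.13 to -0.03. Some of these alternatives could not change the difference. Leaving out the block and trend and robust moderation keep it by construction. Dropping the filter left the same probesets in Grm3 and Grm8, as did leaving out dim probesets in Grm3 and Grm7. Grm4 turned to 0.0281 with centred arrays, 0.0153 with a new quantile normalization and 0.0321 with the median over probesets, and relative to the median gene of the litter it was 0.00992. With each litter left out it lay between -0.0606 and 0.0239, at 0.0239 without litter 2 and 0.0041 without litter 6. Grm6 turned to -0.0153 with a filter at a relative standard deviation of 0.2, and lay between -0.00594 (without litter 6) and 0.0737 with a litter left out. Relative to the median gene, Grm3 gave -0.0569 and passed the sign-flip threshold. The cause of these shifts was not tested. The weighted ratio of Grm6 went to 4.08 without the filter, since the 1-probe probeset then enters with signals near 0.

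In the fit without the replicate block the differences are unchanged by construction, and the adjusted p-values of the 5 receptors were from 0.747 (Grm3) to 0.897 (Grm4). Over the whole table the fit without the block called 26 probesets and 18 splicing indexes, and the paired fit 10 and 2. Centred arrays gave 16 probesets, a pseudocount of 64 gave 23 probesets and 10 splicing indexes, and leaving out litters gave 9 to 12 and 2 to 3. Genes called were 2 in place of 1 with a pseudocount of 64, with no filter, with trend and robust moderation or without litter 3, and 5 with the filter at 0.2. In the Simes test of diffSplice the lowest adjusted p of a receptor gene was 0.396 (Grm3).

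With the median over probesets, Grm3 stood at 11.44 and Grm4 at 9.30. Against the median of the controls, the share of probesets above it was 100% in Grm3, Grm4 and Grm7, 92.3% in Grm8 and 60.0% in Grm6, in place of 81.8%, 45.5%, 92.3%, 15.4% and 0%.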
